A study of Mus musculus with 8 samples.

Results

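The 10 genes described here encode the chains of the cytokine receptors that T helper cells use for IL-12, IL-18, IL-6, IL-21, IL-27 and interferon-gamma: Il12rb1, Il12rb2, Il18r1, Il18rap, Il6ra, Il6st, Il21r, Il27ra, Ifngr1 and Ifngr2. Each was read from a probeset of the array that the platform annotation pairs with that symbol alone, and all 10 were found among the 19938 genes measured in this way. Each of the 10 had 1 such probeset, so no choice between probesets was needed. The members were listed by function, with earlier results of these data known, so counts of members called are descriptions. The rule that chose their probesets uses no difference between groups.

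Cytokine receptors of this kind have no enzyme of their own. The IL-12, IL-6, IL-21, IL-27 and interferon-gamma receptors bind Janus kinases, which phosphorylate STAT transcription factors when the ligand brings the chains together, whereas the IL-18 receptor belongs to the IL-1 receptor family and signals through the adaptor MyD88. In T helper cells IL-12 acting through STAT4 drives the Th1 programme of T-bet and interferon-gamma, IL-6 and IL-21 acting through STAT3 drive the Th17 programme of ROR-gamma-t and IL-17, and interferon-gamma is the product and a feedback signal of Th1 cells. TET2 is a dioxygenase that oxidises 5-methylcytosine, chiefly at CpG sites, to 5-hydroxymethylcytosine.

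Gene expression was measured on 8 Affymetrix arrays of mouse CD4+ T cells on the C57BL/6 background, 2 arrays for each of 4 groups: Tet2-/- Th17, wild-type Th17, Tet2-/- Th1 and wild-type Th1 cells. All cells began as naive CD4+CD25- T cells, CD62L high and CD44 low, sorted from spleens and lymph nodes, and all were stimulated through CD3 and CD28. Th17 cultures received TGF-beta1 at 0.5 ng/ml, IL-6 at 10 ng/ml and antibodies that block interferon-gamma and IL-4. Th1 cultures received IL-12 at 10 ng/ml and IL-2 at 30 U/ml, with IL-4 blocked. A ligand of a receptor described here was thus added to each medium, IL-6 to one and IL-12 to the other. The labels call the arrays of a group biological replicates and do not say more. The p-values therefore rest on the spread between these arrays, pooled over the 4 groups and drawn toward that of genes of similar intensity. The sources used here do not give how Tet2 was inactivated, the age of the mice or the number of mice behind an array. The values are RMA log2 intensities, on which a difference of 1 is a change by a factor of 2. The level of one gene is not set against that of another, because probes differ in brightness.

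The cultures separated by their labelled cell type. Tbx21, which encodes T-bet, was at 6.95 and 7.31 in Tet2-/- Th17 cells and 7.46 and 7.89 in wild-type Th17 cells, against 10.44 and 10.42 in Tet2-/- Th1 cells and 10.27 and 10.20 in wild-type Th1 cells. Il17f was at 11.01 and 10.61 in Tet2-/- Th17 cells and 10.76 and 11.03 in wild-type Th17 cells, against 6.66 and 6.76 in Tet2-/- Th1 cells and 6.55 and 6.85 in wild-type Th1 cells. Cd4 and Cd3e were at 10.15 or above on every array. Tet2 itself was at 8.37 and 8.42 in Tet2-/- Th17 cells against 8.53 and 8.51 in wild-type Th17 cells, and at 8.12 and 7.97 in Tet2-/- Th1 cells against 8.14 and 8.03 in wild-type Th1 cells. Tet2 thus differed by -0.13 in Th17 cells and -0.039 in Th1 cells and passed the test in neither (adjusted p = 0.999 and 0.984), and as it is not stated where the deletion lies, this probeset does not check the genotype, which rests on the labels. Sex-linked transcripts differed between Th17 arrays: Xist, expressed from the inactive X chromosome of females, was at 8.62 and 11.27 in Tet2-/- Th17 cells and 5.20 and 10.09 in wild-type Th17 cells, against 4.83 to 5.11 on the Th1 arrays, and the mean of 3 Y-linked genes was at 8.71 and 4.85 in Tet2-/- Th17 cells, 8.80 and 7.82 in wild-type Th17 cells, and 7.94 to 8.24 on the Th1 arrays. The dimmest genes read lower on Th17 arrays: the median of 1194 olfactory and vomeronasal receptor genes, which T cells are not known to use, was 4.92 to 5.13 on the Th17 arrays and 5.28 to 5.43 on the Th1 arrays. All 10 receptor genes had a mean above the 95th percentile of those genes, which was 6.72, and 9 of them were above the same percentile of each array on all 8 arrays. Il18rap was above its array's own 95th percentile on 7 of 8 arrays.

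The first comparison asks how the receptor genes differ between Th17 and Th1 cells of the same genotype. In Tet2-/- cells 6 of the 10 genes passed the limma test at a Benjamini-Hochberg adjusted p under 0.05, against 10.4% of all 19938 genes: Ifngr2, Il18r1, Il6st and Ifngr1 were higher in Th17 cells, where 7.14% of all genes were called higher, and Il12rb2 and Il12rb1 were lower, where 3.29% were called lower. In wild-type cells 5 of 10 passed, against 8.47% of all genes: Ifngr2, Il27ra and Il6st were higher in Th17 cells (5.3% of all genes) and Il12rb2 and Il21r were lower (3.17% of all genes). In the mean difference over both genotypes 8 of 10 passed, against 22.1% of all genes, 5 of them higher (13.6%) and 3 lower (8.52%). The genes went both ways, with a median difference over the 10 of 0.40 in Tet2-/- cells and 0.19 in wild-type cells, beside -0.0071 and -0.015 over all genes. Quantile normalization of the deposited values moved the members' differences by -0.13 on average in each genotype and took the share of higher genes among all calls to 55.7%, from 68.5%, in Tet2-/- cells and to 51.6%, from 62.5%, in wild-type cells. RNA from a culture is a mixture, so a lower value can stand for fewer cells that express a gene or for less RNA in each cell, and these cannot be told apart.

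**Figure D1:**
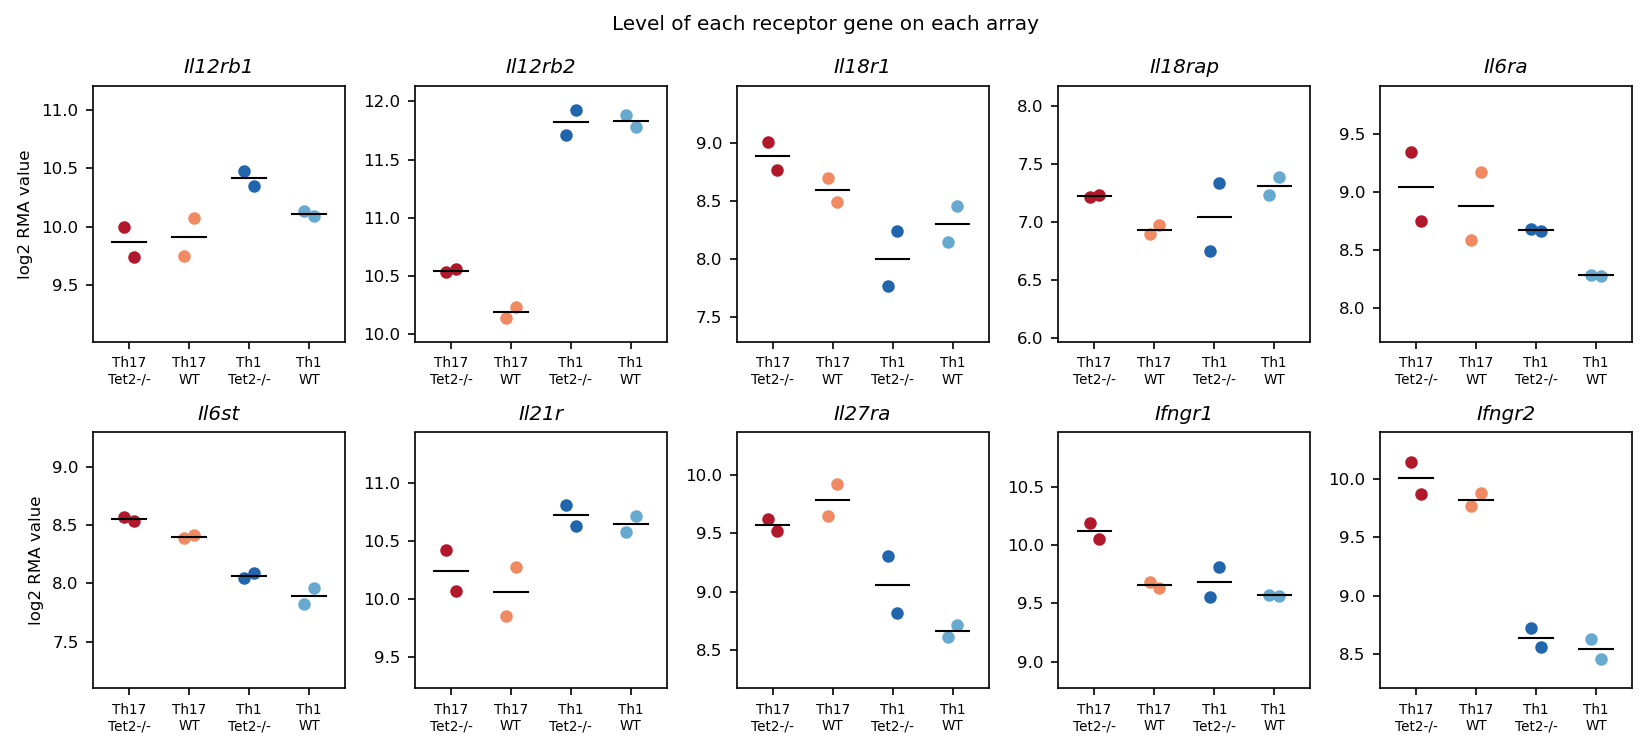
Level of each of the 10 receptor genes on each array, in RMA log2 units. Each point is 1 array, each bar the mean of the 2 arrays of a group, and every panel has a vertical axis of its own. Il12rb2 lies at 10.14 to 10.56 on the Th17 arrays and at 11.71 to 11.92 on the Th1 arrays, and Ifngr2 at 9.77 to 10.15 on the Th17 arrays and 8.45 to 8.72 on the Th1 arrays.

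The IL-12 receptor pairs Il12rb1, the chain shared with the IL-23 receptor and bound by TYK2, with Il12rb2, the chain that recruits STAT4. Il12rb2 was at 10.53 and 10.56 in Tet2-/- Th17 cells and 10.14 and 10.23 in wild-type Th17 cells, against 11.71 and 11.92 in Tet2-/- Th1 cells and 11.88 and 11.78 in wild-type Th1 cells. All 4 Th17 arrays lay below all 4 Th1 arrays, by more than the spread within any group. The difference was -1.27 (SE 0.13, adjusted p = 4.51e-05) in Tet2-/- cells and -1.65 (SE 0.13, adjusted p = 5.85e-06) in wild-type cells, a mean of -1.46, or 2.75-fold lower in Th17 cells. Il12rb1 was at 10.00 and 9.74 in Tet2-/- Th17 cells and 9.75 and 10.07 in wild-type Th17 cells, against 10.48 and 10.35 in Tet2-/- Th1 cells and 10.13 and 10.09 in wild-type Th1 cells. The 4 group means of Il12rb1 spanned 0.55 and those of Il12rb2 spanned 1.65. In Tet2-/- cells Il12rb1 was lower in Th17 cells by a difference of -0.55 (adjusted p = 0.0305). That call was lost when any 1 of the 4 Tet2-/- arrays was left out, with adjusted p up to 0.234. In wild-type cells the Il12rb1 difference was -0.20 with a 95% confidence interval of -0.52 to 0.11 and did not pass the test (adjusted p = 0.425).

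The interferon-gamma receptor pairs Ifngr1, the ligand-binding chain that carries JAK1, with Ifngr2, the JAK2-binding chain without which the receptor does not signal. Ifngr2 was at 10.15 and 9.87 in Tet2-/- Th17 cells and 9.77 and 9.88 in wild-type Th17 cells, against 8.72 and 8.56 in Tet2-/- Th1 cells and 8.63 and 8.45 in wild-type Th1 cells. All 4 Th17 arrays were above all 4 Th1 arrays. The difference was 1.37 (SE 0.14, adjusted p = 4.96e-05) in Tet2-/- cells and 1.29 (SE 0.14, adjusted p = 9.49e-05) in wild-type cells, a mean of 1.33, or 2.51-fold higher in Th17 cells. Ifngr1 was at 10.19 and 10.05 in Tet2-/- Th17 cells and 9.69 and 9.63 in wild-type Th17 cells, against 9.55 and 9.81 in Tet2-/- Th1 cells and 9.57 and 9.57 in wild-type Th1 cells. Its level was highest in Tet2-/- Th17 cells, above every other array, and the other 3 groups lay close together. Ifngr1 was higher in Th17 cells by 0.44 in Tet2-/- cells (adjusted p = 0.0489), a call that 5 of 8 fits without 1 array lost and quantile normalization lost too (0.31, adjusted p = 0.163), and its difference in wild-type cells was 0.089 with an interval of -0.19 to 0.37 (adjusted p = 0.723). With quantile normalization that wild-type difference became -0.053.

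Il12rb2 and Ifngr2 had the widest differences between the cell types, in opposite directions, and their promoter windows are shown because CpG sites are what TET2 acts on. Each window runs from 250 bases before to 50 bases after an annotated start, as given by RefSeq for GRCm38.p6. Each is printed 5′ to 3′ along the gene, with every CG in capitals. The Il12rb2 window is chr6:67376139-67376438 on the minus strand, and the Ifngr2 window is chr16:91546809-91547108 on the plus strand.
Il12rb2: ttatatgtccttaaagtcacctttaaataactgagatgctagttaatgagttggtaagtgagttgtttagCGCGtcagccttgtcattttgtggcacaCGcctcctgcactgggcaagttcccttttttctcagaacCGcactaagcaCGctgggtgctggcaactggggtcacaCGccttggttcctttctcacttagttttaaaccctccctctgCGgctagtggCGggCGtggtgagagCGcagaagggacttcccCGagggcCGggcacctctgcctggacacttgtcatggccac
Ifngr2: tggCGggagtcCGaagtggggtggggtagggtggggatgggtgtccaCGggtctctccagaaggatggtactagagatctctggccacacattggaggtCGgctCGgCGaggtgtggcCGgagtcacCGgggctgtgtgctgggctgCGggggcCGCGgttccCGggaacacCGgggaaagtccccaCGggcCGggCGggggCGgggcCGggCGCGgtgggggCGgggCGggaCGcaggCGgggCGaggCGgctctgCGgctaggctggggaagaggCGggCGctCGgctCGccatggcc
The Il12rb2 window holds 12 CG and the Ifngr2 window 31 CG, beside a median of 7 and an upper quartile of 20 over 32851 promoter windows of the same length. Both strands were searched for GTGTGA, the core of the T-box site, and for TTCNNNGAA, a palindrome that STAT dimers bind. The Il12rb2 window holds 1 match to each, at positions -80 and -123 from the start used, where 14.5% and 8.3% of all windows hold GTGTGA and TTCNNNGAA. The annotated Il12rb2 gene reaches farther upstream than that start, to 67376293, which lies inside the window. Its CG count and the positions of the matches therefore depend on which start is taken. The Ifngr2 window holds neither. It does hold TTC and GAA at a wider spacing, in ttccCGggaa, and that spacing was searched in no window. DNA methylation was not measured on these arrays.

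The IL-18 receptor pairs Il18r1, the ligand-binding chain, with Il18rap, the accessory chain that completes the signalling complex, and in mice these are neighbouring genes. Their promoter windows, chr1:40465302-40465601 and chr1:40515112-40515411, both on the plus strand and with CG in capitals as above, are shown because the genes lie side by side and encode the 2 chains of one receptor.
Il18r1: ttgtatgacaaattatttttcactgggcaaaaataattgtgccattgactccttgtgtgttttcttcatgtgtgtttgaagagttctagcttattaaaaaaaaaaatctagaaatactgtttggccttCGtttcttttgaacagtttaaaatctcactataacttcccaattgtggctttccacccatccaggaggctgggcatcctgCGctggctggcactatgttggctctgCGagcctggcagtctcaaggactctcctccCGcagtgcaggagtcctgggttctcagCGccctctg
Il18rap: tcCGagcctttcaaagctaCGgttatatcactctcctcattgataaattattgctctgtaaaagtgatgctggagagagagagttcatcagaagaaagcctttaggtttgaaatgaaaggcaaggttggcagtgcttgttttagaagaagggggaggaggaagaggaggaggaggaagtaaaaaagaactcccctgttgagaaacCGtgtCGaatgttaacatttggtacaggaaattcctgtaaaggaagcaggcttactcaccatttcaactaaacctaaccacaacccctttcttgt
The Il18r1 window, the one farthest upstream of 3 annotated for this gene, holds 5 CG and the Il18rap window 4 CG, both below the median of 7, and neither holds GTGTGA or TTCNNNGAA. Both hold TTC and GAA at the wider spacing seen for Ifngr2, in ttcttttgaa for Il18r1 and ttcatcagaa for Il18rap. The other windows of Il18r1 hold 7 and 8 CG, and the one with 8 CG, farthest downstream, holds 2 matches to TTCNNNGAA, so the CG count and the matches depend on which start is taken. Il18r1 was at 9.01 and 8.77 in Tet2-/- Th17 cells and 8.69 and 8.49 in wild-type Th17 cells, against 7.77 and 8.24 in Tet2-/- Th1 cells and 8.15 and 8.45 in wild-type Th1 cells. All 4 Th17 arrays were above all 4 Th1 arrays, but the highest wild-type Th1 array came close to the lowest Th17 array. The difference was 0.88 (SE 0.17, adjusted p = 0.00566) in Tet2-/- cells and 0.29 (SE 0.17, adjusted p = 0.329) in wild-type cells. The Tet2-/- call was lost without Tet2-/- Th17 replicate 1 (difference 0.76) or Tet2-/- Th1 replicate 1 (difference 0.65). Il18rap was at 7.21 and 7.23 in Tet2-/- Th17 cells and 6.89 and 6.97 in wild-type Th17 cells, against 6.75 and 7.34 in Tet2-/- Th1 cells and 7.23 and 7.38 in wild-type Th1 cells. Its Tet2-/- Th1 arrays were 0.59 apart, wider than any difference between its group means, and the Th17 minus Th1 difference was 0.18 (adjusted p = 0.556) in Tet2-/- cells and -0.38 (adjusted p = 0.174) in wild-type cells. Il18rap thus passed the test in neither genotype, and its intervals reached from -0.72 to 0.53 over both.

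The IL-6 receptor pairs Il6ra, which binds IL-6, with Il6st, the gp130 chain that signals for the whole IL-6 family. Il6st was at 8.57 and 8.54 in Tet2-/- Th17 cells and 8.39 and 8.41 in wild-type Th17 cells, against 8.04 and 8.09 in Tet2-/- Th1 cells and 7.82 and 7.96 in wild-type Th1 cells. The 2 arrays of each group lay within 0.14 of each other and no 2 groups overlapped. Il6st was higher in Th17 cells by 0.49 (SE 0.11, adjusted p = 0.0155) in Tet2-/- cells and by 0.51 (SE 0.11, adjusted p = 0.0156) in wild-type cells. With 1 array left out the call stood in 4 of 8 fits in Tet2-/- cells and in 5 of 8 in wild-type cells, lost each time by leaving out an array of the genotype compared, and with quantile normalization it was lost in both genotypes (adjusted p = 0.0778 in Tet2-/- and 0.0712 in wild-type cells). The mean difference over both genotypes, 0.50 (adjusted p = 0.000838), passed in all 8. Il6ra was at 9.34 and 8.75 in Tet2-/- Th17 cells and 8.59 and 9.17 in wild-type Th17 cells, against 8.68 and 8.67 in Tet2-/- Th1 cells and 8.29 and 8.28 in wild-type Th1 cells. Its Th17 arrays were 0.58 to 0.59 apart within each genotype, and 1 wild-type Th17 array lay below both Tet2-/- Th1 arrays. Neither genotype alone passed the test (0.37, adjusted p = 0.287 in Tet2-/- cells and 0.60, adjusted p = 0.0883 in wild-type cells), and the mean of 0.48 did (adjusted p = 0.0286), in 2 of 8 fits without 1 array and not with quantile normalization (0.33, adjusted p = 0.121).

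Il27ra, the WSX-1 chain that pairs with gp130 to bind IL-27, was at 9.63 and 9.52 in Tet2-/- Th17 cells and 9.65 and 9.93 in wild-type Th17 cells, against 9.30 and 8.81 in Tet2-/- Th1 cells and 8.61 and 8.71 in wild-type Th1 cells. All 4 Th17 arrays were above all 4 Th1 arrays, and the lowest group was wild-type Th1. Il27ra was higher in Th17 cells by 1.13 (SE 0.16, adjusted p = 0.000954), or 2.19-fold, in wild-type cells. In Tet2-/- cells the difference was 0.52 (SE 0.16, adjusted p = 0.0636), and without Tet2-/- Th1 replicate 1, which read 0.49 above the other array of its group, it was 0.76 (adjusted p = 0.0225; 0.0225 to 0.41 over the fits without 1 array). Il21r, which pairs with the common gamma chain to bind IL-21, was at 10.42 and 10.07 in Tet2-/- Th17 cells and 9.85 and 10.27 in wild-type Th17 cells, against 10.81 and 10.63 in Tet2-/- Th1 cells and 10.58 and 10.71 in wild-type Th1 cells. Its 4 Th17 arrays were below its 4 Th1 arrays. Il21r was lower in Th17 cells by a difference of -0.58 in wild-type cells (adjusted p = 0.0476), a call that stood in 1 of 8 fits without 1 array. In Tet2-/- cells the difference was -0.48 (adjusted p = 0.0906), called with quantile normalization (-0.59, adjusted p = 0.0242), and the mean over both genotypes, -0.53 (adjusted p = 0.00657), passed in all 8.

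**Figure D2:**
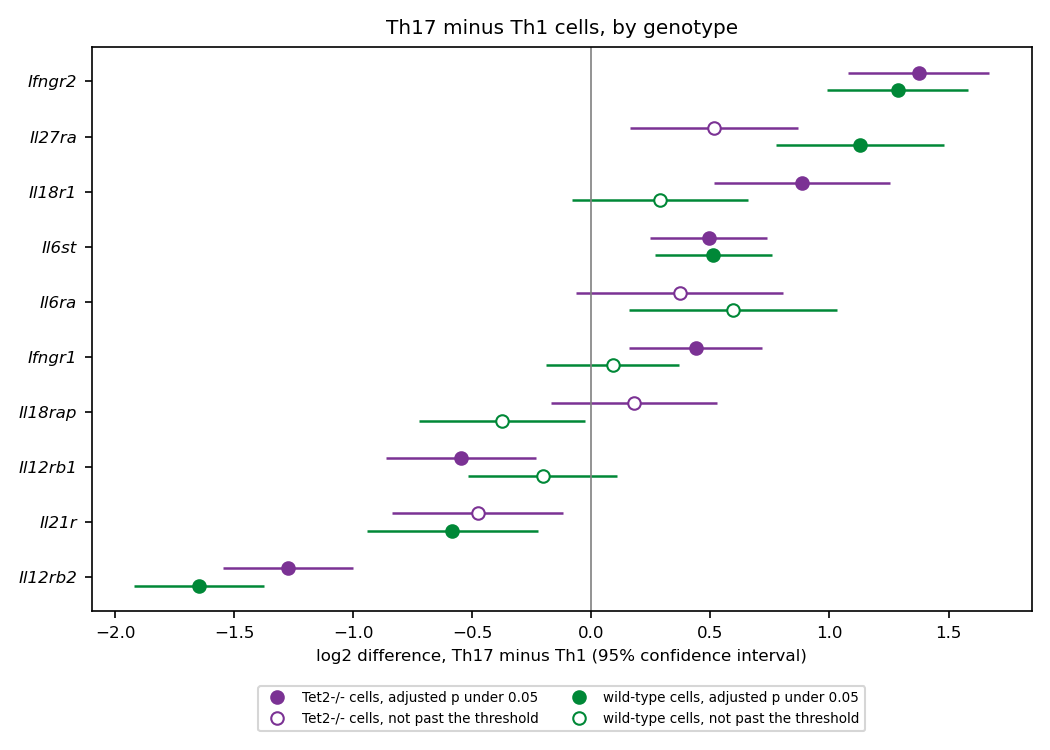
Th17 minus Th1 difference of each receptor gene in log2 units, in Tet2-/- cells (purple) and wild-type cells (green), with 95% confidence intervals from limma. Filled points passed at an adjusted p under 0.05. Ifngr2 at the top (1.37 and 1.29) and Il12rb2 at the bottom (-1.27 and -1.65) are the points farthest from 0 in each genotype.

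For the 10 genes, the arrays of the 2 cell types did not overlap for 9 genes in Tet2-/- cells, where that held for 56.4% of all genes, and for 10 in wild-type cells (51.9% of all genes). Over both genotypes, 7 of 10 had all 4 Th17 arrays on one side of all 4 Th1 arrays (24.1% of all genes): Il18r1, Il6st, Il27ra and Ifngr2 were above (14% of all genes), and Il12rb1, Il12rb2 and Il21r were below (10.2%). The order of the 4 groups was the same from low to high for Il6ra, Il6st and Ifngr2: wild-type Th1, Tet2-/- Th1, wild-type Th17, Tet2-/- Th17. Within a cell type the neighbours in that order overlapped for Ifngr2 in both cell types and for Il6ra in Th17 cells, and Tet2-/- Th1 overlapped wild-type Th17 for Il6ra. The sex-linked transcripts above differed between the Th17 and Th1 arrays and the differences were also fitted with the Y-linked mean as a covariate. Il12rb2 was then at -1.29 in Tet2-/- cells and -1.64 in wild-type cells, and Ifngr2 at 1.45 and 1.27. The Y-linked mean overlapped between the wild-type groups, at 8.80 and 7.82 in Th17 cells and 7.97 and 8.24 in Th1 cells. In Tet2-/- cells 1 Th17 array, at 4.85, stood apart. The fit could therefore change the wild-type values little, and it is no test of the difference in Xist. Without wild-type Th17 replicate 2, which leaves in that group the array with Xist at the Th1 level, the wild-type differences were -1.69 for Il12rb2, 1.23 for Ifngr2 and 0.99 for Il27ra.

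The second comparison asks whether loss of Tet2 changed the receptor genes within a cell type. In Th17 cells 0 of 10 passed the limma test, as did 0% of all genes, and 2 of 10 had an unadjusted p under 0.05, against 4.25% of all genes. In Th1 cells 0 of 10 passed, against 0.00502% of all genes, which is 1 gene, Ifng, and 1 of 10 had an unadjusted p under 0.05, against 5.74%. In Th17 cells the 2 genes were Ifngr1 and Il12rb2. Ifngr1 was at 10.19 and 10.05 in Tet2-/- against 9.69 and 9.63 in wild-type cells, a difference of 0.46 with an interval of 0.18 to 0.74 (unadjusted p = 0.00356, adjusted p = 0.742). Il12rb2 was at 10.53 and 10.56 in Tet2-/- against 10.14 and 10.23 in wild-type Th17 cells, a difference of 0.36 (unadjusted p = 0.0136, adjusted p = 0.968). Sex-linked transcripts also differed between these genotypes, with overlapping arrays and no call. In Tet2-/- Th17 cells Xist was higher by 2.30, and the median difference of the Y-linked genes was -1.64. Beyond the fit with the Y-linked covariate, the part of sex in these Th17 values was not tested. In Th1 cells the gene was Il27ra, at 9.30 and 8.81 in Tet2-/- against 8.61 and 8.71 in wild-type cells, a difference of 0.40 (unadjusted p = 0.0296, adjusted p = 0.833). Without Tet2-/- Th1 replicate 1 that difference was 0.15.

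The intervals show the sizes these 2 arrays a group could not exclude. Over the 10 genes the Tet2-/- minus wild-type differences were -0.21 to 0.46 in Th17 cells, with 95% bounds between -0.57 and 0.74, and -0.30 to 0.40 in Th1 cells, with bounds between -0.67 and 0.82. A change of up to 1.67-fold in Th17 cells and 1.77-fold in Th1 cells therefore lies within the intervals. In Th17 cells 8 of 10 genes had the higher mean in Tet2-/- cells, beside 56.6% of all genes, and in Th1 cells 7 of 10, beside 52.2%. The arrays of the genotypes did not overlap for 6 genes in Th17 cells (33.2% of all genes), with Il12rb2, Il18r1, Il18rap, Il6st and Ifngr1 higher (19.9% of all genes) and Il27ra lower (13.3%) in Tet2-/- cells. In Th1 cells they did not overlap for 4 genes (32.7% of all genes), Il12rb1, Il6ra, Il6st and Il27ra, all higher in Tet2-/- cells (18.3% of all genes). The mean Tet2 effect over both cell types called 0 of 10 genes, as it did 0% of all genes, and 1 of 10, Ifngr1, had an unadjusted p under 0.05 (0.29, unadjusted p = 0.00798) against 5.32% of all genes.

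Whether the Tet2 effect differed between Th17 and Th1 cells was tested as an interaction, which uses the same 8 arrays as the comparisons above. It called 0 of 10 genes and 0% of all genes, and 3 of 10 had an unadjusted p under 0.05, against 4.55% of all genes. These were the 2 chains of the IL-18 receptor, whose Tet2-/- minus wild-type difference was 0.30 in Th17 cells and -0.30 in Th1 cells for Il18r1, and 0.29 in Th17 cells and -0.26 in Th1 cells for Il18rap, and Il27ra, at -0.21 in Th17 cells and 0.40 in Th1 cells. The interaction was 0.60 (interval 0.074 to 1.12) for Il18r1, 0.55 (0.060 to 1.05) for Il18rap and -0.61 (-1.11 to -0.12) for Il27ra, with an adjusted p of 0.999 for each. Each leaned on the same array: without Tet2-/- Th1 replicate 1 the interaction was 0.36 for Il18r1, 0.26 for Il18rap and -0.37 for Il27ra. On that array Il18rap, at 6.75, was below the array's own 95th percentile of the olfactory and vomeronasal genes, 6.96.

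**Figure D3:**
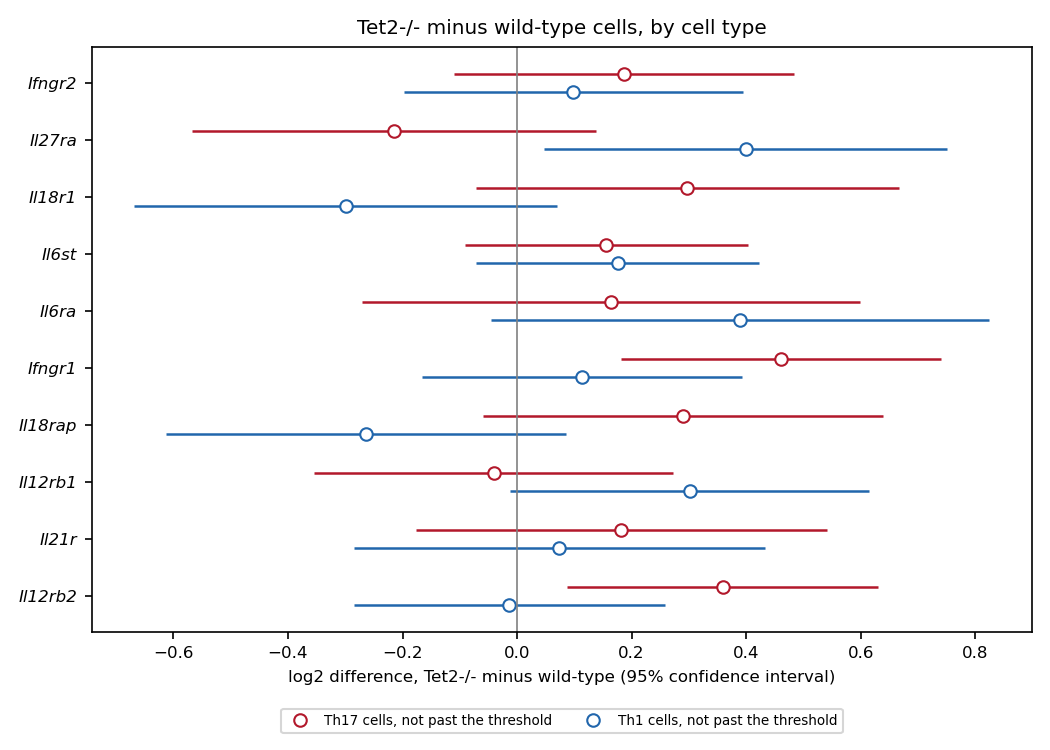
Tet2-/- minus wild-type difference of each receptor gene in log2 units, in Th17 cells (red) and Th1 cells (blue), with 95% confidence intervals from limma. Open points did not pass at an adjusted p under 0.05, which holds for all 20 points, and they lie between -0.30 and 0.46.

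Other genes of the pathways were read from lists of their ligands, partner chains, signalling proteins and response genes. Of 14 ligands measured, 6 were above the olfactory reference level on average, and of these Ifng and Il21 were called between the cell types in both genotypes, Lif in wild-type cells, and Osm, Clcf1 and Il27 in neither. A gene that on neither array of a group was above that array's own 95th percentile of the olfactory and vomeronasal genes has only an upper limit there, so its fold is given as a lower bound, computed against that percentile. Ifng, the ligand of Ifngr1 and Ifngr2, was at 6.00 and 6.06 in Tet2-/- Th17 cells and 6.07 and 6.01 in wild-type Th17 cells, against 10.43 and 10.18 in Tet2-/- Th1 cells and 11.56 and 11.89 in wild-type Th1 cells. It was not above the dim level on any Th17 array, and so was at least 13.4-fold lower in Th17 cells in Tet2-/- cells and at least 36.1-fold lower in wild-type cells (adjusted p = 3.93e-09 and 2.35e-10). In Th1 cells Ifng was also lower in Tet2-/- than in wild-type cells (-1.42, adjusted p = 0.00391). Il21, the ligand of Il21r, was higher in Th17 cells by 1.84 in Tet2-/- cells and 1.70 in wild-type cells (adjusted p = 3.17e-05 and 6.46e-05), while its receptor gene was at the lower level there. Lif, an IL-6 family ligand, was higher in Th17 cells in wild-type cells (0.94, adjusted p = 0.000692), and Ifng in Th1 cells and Il21 and Lif in Th17 cells were at 9.21 or above. Il23a was called in both genotypes (adjusted p = 0.0118 in Tet2-/- and 0.00809 in wild-type cells) and Il18 in wild-type cells (adjusted p = 0.0186). Neither they nor Il6, Il12a and Il12b had an array above the dim level, so no fold is given for them.

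Among 15 other receptor chains of the same families, Il23r, which pairs with Il12rb1 to bind IL-23, was not above the dim level on any Th1 array and was at least 6.69-fold higher in Th17 cells in Tet2-/- cells and at least 8.14-fold higher in wild-type cells (adjusted p = 1.15e-08 and 6.53e-09). It was the only chain of that list called in wild-type cells, 1 of 15, where 8.47% of all genes were called. In Tet2-/- cells 3 of 15 were called, where 10.4% of all genes were called. The others were the decoy receptor gene Il1r2 (at least 1.11-fold higher, adjusted p = 0.00646) and Il1rl2, the IL-36 receptor. The Th17 level of Il1rl2 did not exceed the dim level of the Th1 arrays (adjusted p = 0.0442). The 2 partners of Il12rb1 thus went opposite ways between the cell types, with Il12rb2 lower and Il23r higher in Th17 cells. Of 9 Janus kinase and STAT genes, 2 were called in each genotype, beside the same shares of all genes. Jak1, the kinase that Ifngr1 and gp130 bind, was higher in Th17 cells by 0.77 in Tet2-/- cells and 0.51 in wild-type cells (adjusted p = 0.00191 and 0.0276). Stat5b was higher by 0.54 and 0.65 (adjusted p = 0.0136 and 0.00607). The other 7 passed in neither genotype. Stat4, which IL-12 activates, differed by 0.29 in Tet2-/- cells and -0.089 in wild-type cells. Stat3, which IL-6 activates, differed by -0.016 and -0.11.

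Of 16 SOCS genes and other negative regulators, Pias1, a SUMO ligase, was higher in Th17 cells by 0.54 (adjusted p = 0.0104) and Ptpn6, the SHP-1 phosphatase, lower by a difference of -0.53 (adjusted p = 0.0219) in Tet2-/- cells, and Socs2 was higher by 0.65 (adjusted p = 0.0457) in wild-type cells. These 2 of 16 and 1 of 16 are near the shares of all genes called, 10.4% in Tet2-/- and 8.47% in wild-type cells. Socs3, the gp130 inhibitor that STAT3 induces, differed by 0.33 in Tet2-/- cells and 0.16 in wild-type cells and did not pass. Of 11 IL-18 signalling genes, Tab2, an adaptor of the TAK1 kinase, was higher in Th17 cells by 0.53 in Tet2-/- cells and 0.45 in wild-type cells (adjusted p = 0.0141 and 0.0366), and 1 of 11 is again near those shares. Myd88 differed by -0.31 and -0.49 and did not pass in either genotype.

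Response genes of the same cytokines were read from 3 lists. Of 16 interferon-gamma response genes, 12 were called lower in Th17 cells in Tet2-/- cells and 10 in wild-type cells, and 0 higher, where 3.29% and 3.17% of all genes were called lower, and the median difference was -0.78 in Tet2-/- and -0.65 in wild-type cells. Iigp1, an interferon-inducible GTPase that was not above the dim level on any Th17 array, was at least 6.23-fold lower in Tet2-/- cells and at least 5.07-fold lower in wild-type cells. Gbp4 differed by -2.42 in Tet2-/- cells and -2.18 in wild-type cells, and Irf8, an interferon-induced transcription factor, by -1.97 and -1.99. Tap1, the antigen peptide transporter, differed by -1.48 and -1.40, Irgm1 by -1.46 and -1.33 and Psmb9 of the immunoproteasome by -1.28 in each. These genes were lower in the cells with the higher level of Ifngr2, whose cultures also held an antibody against interferon-gamma. Of 11 IL-12 and STAT4 response genes that are no receptor members, 8 were called lower in Th17 cells in each genotype and 0 higher, with Gzmb, which encodes granzyme B, at a difference of -4.66 in Tet2-/- cells, where 1 of 2 Th17 arrays was above the dim level, and -4.84 in wild-type cells. Nkg7, a cytotoxic granule gene, was at least 23.1-fold lower in Tet2-/- Th17 cells, where it was not above the dim level, and differed by -4.53 in wild-type cells, whose Th17 arrays read 6.66 and 6.54, just above it. Of 15 IL-6 and STAT3 response genes, 8 were higher and 1 lower in Tet2-/- cells and 9 were higher and 0 lower in wild-type cells, where 7.14% and 5.3% of all genes were called higher. Il17f, not above the dim level on any Th1 array, was at least 14.8-fold higher in Tet2-/- cells and at least 16.4-fold higher in wild-type cells. The transcription factor gene Maf was higher by 3.52 in Tet2-/- cells, where 1 of 2 Th1 arrays was above the dim level, and at least 10.7-fold higher in wild-type cells, where neither was. Rora, which encodes a nuclear receptor of the Th17 programme, was higher by 2.42 and 2.13. The gene lists hold textbook targets and overlap in part with the lineage markers. Between genotypes, Ifng in Th1 cells was the one listed gene called.

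**Figure D4:**
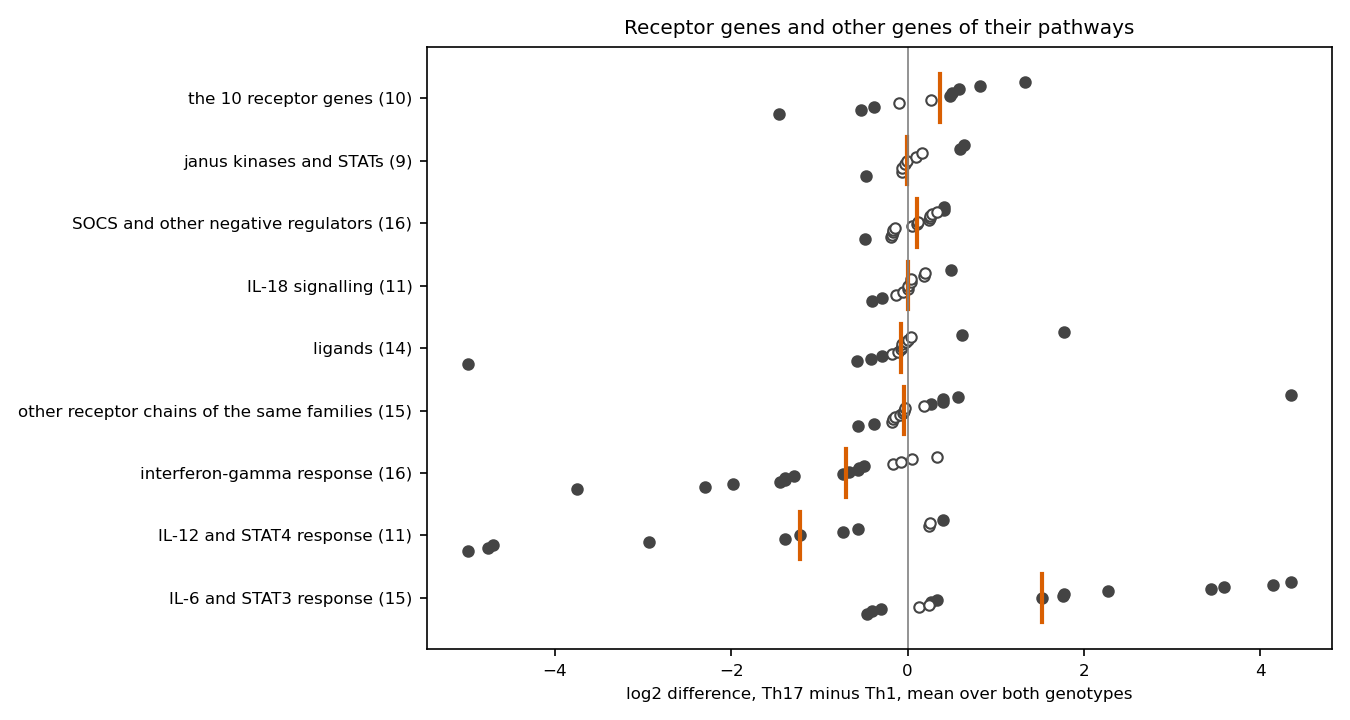
Th17 minus Th1 difference, as the mean over both genotypes in log2 units, for the 10 receptor genes and for the other genes of each pathway list, with the number measured in parentheses. Each point is 1 gene, filled where it passed at an adjusted p under 0.05, and the orange bar is the median of the list, which is 0.37 for the receptor genes, -0.69 for the interferon-gamma response and 1.53 for the IL-6 and STAT3 response. Genes not above the dim level in a cell type are plotted at their fitted difference.

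Other cells that carry these receptors were looked for through marker lists. Natural killer cells express the IL-12 and IL-18 receptors. Of 9 natural killer genes measured, 1 was above the olfactory reference level on average, Prf1, which encodes perforin. It was at 6.95 and 7.14 in Tet2-/- Th17 cells and 6.75 and 6.98 in wild-type Th17 cells, against 7.78 and 7.88 in Tet2-/- Th1 cells and 7.61 and 8.07 in wild-type Th1 cells, the same direction as Il12rb2. Klrb1c, Ncr1 and Klrk1 were at 3.94 to 4.84 on every array. The summed level of the list, on the linear scale, was 458 to 620 in Tet2-/- Th17 cells, 358 to 384 in wild-type Th17 cells, 467 to 472 in Tet2-/- Th1 cells and 433 to 509 in wild-type Th1 cells. Klrd1, at 7.29 and 8.10 in Tet2-/- Th17 cells and 5.72 to 6.56 on the other arrays, was also above the arrays' own dim level in Tet2-/- Th17 cells, where Klrc1 read 5.48 and 6.07 against 5.03 to 5.65 on the other arrays. The part of these genes in the values of Il12rb2 and Il18r1 was not tested. None of the 7 B cell, 7 dendritic cell and 2 CD8 T cell genes had a mean over the 8 arrays above that level. Against the lower dim level of the Th17 arrays alone, 2 B cell genes, Cd79b and Ebf1, were above it in both Th17 groups, with no array above 6.96, and neither was called between cell types. Myeloid and stromal cells carry Il6st, Ifngr1 and Ifngr2. Of 12 myeloid genes 2 were above that level, Cd68 and Ly6g, and the defining genes Csf1r and Lyz2 were at 4.66 to 5.66. The summed level of the list was 1810 to 2020 in Tet2-/- Th17 cells, 1180 to 1370 in wild-type Th17 cells, 1130 to 1160 in Tet2-/- Th1 cells and 1070 to 1080 in wild-type Th1 cells, mostly through Ly6g, at 10.40 and 10.15 in Tet2-/- Th17 cells, 9.03 and 9.54 in wild-type Th17 cells, 8.54 and 8.71 in Tet2-/- Th1 cells and 8.35 and 8.58 in wild-type Th1 cells. Of 11 stromal and endothelial genes 5 were above that level, and the summed level was 1440 to 1460 in Tet2-/- Th17 cells, 1170 to 1240 in wild-type Th17 cells, 1180 to 1240 in Tet2-/- Th1 cells and 1060 to 1070 in wild-type Th1 cells, with Pdgfra, Pdgfrb, Cdh5 and Kdr at 6.32 or below on every array. Lum, a matrix proteoglycan gene of that list, was at 8.13 and 8.00 in Tet2-/- Th17 cells and 6.98 and 7.10 in wild-type Th17 cells, against 5.07 to 5.41 on the Th1 arrays, and Dcn was at 6.11 and 6.58 in Tet2-/- Th17 cells and 5.60 and 5.91 in wild-type Th17 cells, against 5.30 to 5.44. Pecam1, an adhesion gene, was at 8.28 in Tet2-/- Th17 cells and 7.91 and 8.15 in wild-type Th17 cells, against 6.56 to 7.21 on the Th1 arrays, whereas Sparc was lower in Th17 cells, at 6.83 to 7.11 against 7.54 to 8.38. The stromal genes above the olfactory reference level on average were Pecam1, Sparc and the collagen genes Col1a1, Col1a2 and Col3a1. The collagens did not rise with Lum and Dcn. Col1a1 was at 7.28 to 7.40 on the Th17 arrays and 7.42 to 7.59 on the Th1 arrays. Mean Col1a2 was 7.05 in Tet2-/- and 7.03 in wild-type Th17 cells, against 7.31 and 7.12 in Th1 cells. Mean Col3a1 was 6.97 and 6.89 against 6.97 and 6.96, in the same order. Both sums were highest in Tet2-/- Th17 cells, as was Ifngr1, and their part in its values was not tested. Naive T cells carry Il6ra and Il6st: of 7 naive T cell genes, 4 were called higher and 1 lower in Th17 cells in each genotype, where 7.14% of all genes were called higher and 3.29% lower in Tet2-/- cells and 5.3% and 3.17% in wild-type cells, and their mean level was 10.36 to 10.47 in Tet2-/- Th17 cells, 10.27 to 10.35 in wild-type Th17 cells, 9.84 to 9.85 in Tet2-/- Th1 cells and 9.84 to 9.90 in wild-type Th1 cells. That list moved in the same direction as Il6st and Il6ra, and its part in their values was not tested.

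The level patterns most like those of the 3 receptor genes whose group means spanned at least 1 log2 unit were sought among 407 other genes with such a span, by Pearson correlation over the 8 arrays. The arrays of a cell type stand apart from those of the other, so the correlation mostly reflects that split. For Il12rb2 the nearest were Serpinb6b (r = 0.993), Lipg (0.992) and Ms4a4b (0.989). For Ifngr2 they were Milr1 (0.997), Gcnt2 (0.996) and Skap1 (0.995), and for Il27ra they were Timp2 (0.960), Neurl3 (0.959) and Podnl1 (0.948). Several of these were dim. The Lipg mean, 5.77 to 6.84 over the groups, was in each group below the dim level of both its arrays. The same held for Gcnt2 and Timp2 in both Th1 groups, and for Milr1 and Neurl3 in wild-type Th1 cells. Serpinb6b had means of 6.89 in Tet2-/- Th17, 6.52 in wild-type Th17, 9.06 in Tet2-/- Th1 and 9.38 in wild-type Th1 cells, and so was low in the same 2 groups as Il12rb2. Milr1 had means of 8.06 in Tet2-/- Th17, 7.85 in wild-type Th17, 6.91 in Tet2-/- Th1 and 6.80 in wild-type Th1 cells, and was high where Ifngr2 was high.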

How the data were processed

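Per the submitters' processing notes, the authors processed the arrays with RMA and Partek, and the deposited values are log2 intensities per probeset. The sources used here give no versions or settings, and base 2 was inferred from the values. RMA compresses differences of dim probes. Of 35556 probesets, 21789 pair with 1 symbol, 1621 with several and 12146 with none. The probeset with the highest mean stood for a gene with several, which left 19938 genes. Limma 3.58.1 in R 4.3.3 fitted the 4 group means to all 8 arrays with an intensity trend, and p-values were two-sided and adjusted by Benjamini-Hochberg over all genes. The script was tested on simulated data. All 10 receptor genes are named. Of each list, up to 6 called genes with the smallest p were eligible for naming, and Myd88, Stat3, Stat4, Socs3, Klrd1, the other natural killer genes, the B cell, myeloid and stromal genes, Osm, Clcf1, Il27 and the dim ligands were chosen after their values were seen. Members and lists were chosen with earlier results of these data known. Alternatives covered moderation, array weights, normalization, probeset choice, dim genes, the Y-linked covariate, the replicate block and leaving out each array. The labels do not say whether replicate numbers pair samples. Deviations of same-numbered arrays correlated at -0.19 to 0.05, which with 2 arrays a group does not decide it. With 2 arrays a group, their number limits the precision.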

Additional observations from a re-analysis of the deposited data

How the results depend on the processing

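All counts of members called in the Tet2 comparisons, the interaction included, were 0 under every alternative run. For Th17 against Th1 cells, Il12rb2 passed under all alternatives in both genotypes, and Ifngr2 under all but the fit in which the variance was not moderated (adjusted p = 0.0525 in Tet2-/- and 0.0683 in wild-type cells). That fit, which has 4 residual degrees of freedom, called 1 member in Tet2-/- cells (0.833% of all genes), 1 in wild-type cells (0.436%) and 3 in the mean over both (6.34%). With 1 array left out, members called ranged from 2 to 6 in Tet2-/- cells (6 with all arrays), from 3 to 4 in wild-type cells (5 with all) and from 6 to 8 in the mean (8 with all), while the share of all genes called ranged from 4.09% to 12% (10.4% with all), 3.35% to 7.82% (8.47%) and 13.6% to 22.3% (22.1%). The lowest came without Tet2-/- Th17 replicate 1 (2), wild-type Th1 replicate 1 (3) and Tet2-/- Th1 replicate 1 (6), and Tet2-/- calls were 3 without Tet2-/- Th17 replicate 2 or Tet2-/- Th1 replicate 1. The labels do not tie the replicate numbers to mice or days. With the replicate number as a block, 4 members were called in Tet2-/- cells (9.08% of all genes), 4 in wild-type cells (7.08%) and 8 in the mean (20% of all genes), and 0 in the Tet2 comparisons. Crossing the wild-type Th17 numbers, an alternative added after the data were seen because deviations of the wild-type pair correlated at -0.19, gave 6 members in wild-type cells (9.23% of all genes).

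Direction changed only in differences that passed no test. Quantile normalization gave -0.032 for the mean Tet2 effect on Il18rap and -0.053 for wild-type Ifngr1 between cell types, centring on the median gave -0.00291 for the mean Tet2 effect on Il18rap, and the Y-linked covariate gave 0.022 for the Tet2 effect on Il12rb1 in Th17 cells and 0.064 for the mean Tet2 effect on Il18r1. The cause was not tested. With 1 array left out, which changes the samples in the mean, the Tet2 effect in Th17 cells ranged from -0.13 to 0.46 for Il6ra, -0.20 to 0.12 for Il12rb1 and -0.028 to 0.39 for Il21r. In Th1 cells it ranged from -0.12 to 0.091 for Il12rb2, -0.56 to 0.028 for Il18rap, -0.020 to 0.17 for Il21r and -0.018 to 0.24 for Ifngr1. The mean Tet2 effect ranged from -0.12 to 0.12 for Il18r1, -0.13 to 0.16 for Il18rap and -0.030 to 0.21 for Il27ra, and the interaction from -0.10 to 0.32 for Il21r, -0.052 to 0.23 for Ifngr2, -0.52 to 0.072 for Il6ra and -0.088 to 0.048 for Il6st. For Il18rap the Th17 minus Th1 difference ranged from -0.11 to 0.47 in Tet2-/- cells and from -0.24 to 0.048 in the mean.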
